A study of Mus musculus with 3 samples.

Results

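FOXF1 is a forkhead transcription factor of the lung mesenchyme and its blood vessels. Chromatin immunoprecipitation and sequencing (ChIP-seq) mapped its binding in the whole lung at embryonic day 18.5, in wild-type C57BL/6 mice. There were 2 biological replicates, each made from 3 pooled lungs, and both were set against a 2% input of lung chromatin from the same stage. No antibody was used for the input, and it enters only through the peak calls. Described here are 8799 of 51013 sites shared by the replicates, those that lay within 1 kb of an annotated end of a protein-coding gene, called gene-end sites below. A shared site was a pair of peak summits, 1 from each replicate, that were each other's nearest and at most 100 bp apart, and it was placed midway between them. Of the other shared sites, 22800 lay deeper inside protein-coding genes and 19414 lay outside them, where noncoding genes were not set apart. Of all 42214 other shared sites, 1181 (2.80%) lay within 1 kb of a further listed start of a protein-coding gene.

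The replicate 1 list held 107378 summits on the nuclear chromosomes and the replicate 2 list 61172. Each summit carries the authors' score, the −log10 significance of the signal over input. The sources used here do not say whether it stems from a p or a q value, nor how deep the libraries were sequenced, on which such a score depends. Scores are therefore compared within a replicate, mostly as a percentile of its list. With 1 group of 2 replicates and no second condition, no difference could be tested across samples, and sites of 1 lung pool are not replicates. The comparisons below are descriptions, and intervals are exact (Clopper-Pearson) 95% intervals that cover counting error only.

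The start of a gene is where RNA polymerase II is loaded, on a promoter that in many genes used by every cell type is rich in CpG dinucleotides and open in most tissues. Forkhead factors bind DNA through a winged helix domain that recognises a short word, here searched as TGTTTAC on either strand. In other settings forkhead factors are known to bind many enhancers far from genes as well as promoters. The lungs were used whole, so a site bound in few cells and a site bound weakly in many cannot be told apart.

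The DNA at the highest sites is shown first for promoters that hold the forkhead word. These are the 6 highest gene-end sites that lay inside a RefSeq promoter window (250 bases before to 50 after a start, build GRCm38.p6) with the word. Each is written 5′ to 3′ along the gene, with the word or its reverse complement, GTAAACA, in capitals.
Btg1: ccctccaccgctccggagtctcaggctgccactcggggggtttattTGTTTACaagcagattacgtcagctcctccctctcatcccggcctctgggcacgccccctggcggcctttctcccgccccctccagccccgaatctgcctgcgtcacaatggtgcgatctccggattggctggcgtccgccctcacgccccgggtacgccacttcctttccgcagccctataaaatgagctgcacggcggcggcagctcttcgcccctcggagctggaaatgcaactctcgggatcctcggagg
Yipf4: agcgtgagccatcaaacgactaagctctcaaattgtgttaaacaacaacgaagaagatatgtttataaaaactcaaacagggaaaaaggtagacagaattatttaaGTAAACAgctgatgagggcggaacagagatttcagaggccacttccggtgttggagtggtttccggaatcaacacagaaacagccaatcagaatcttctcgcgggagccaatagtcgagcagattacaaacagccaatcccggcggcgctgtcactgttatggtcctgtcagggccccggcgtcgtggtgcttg
Rsrp1: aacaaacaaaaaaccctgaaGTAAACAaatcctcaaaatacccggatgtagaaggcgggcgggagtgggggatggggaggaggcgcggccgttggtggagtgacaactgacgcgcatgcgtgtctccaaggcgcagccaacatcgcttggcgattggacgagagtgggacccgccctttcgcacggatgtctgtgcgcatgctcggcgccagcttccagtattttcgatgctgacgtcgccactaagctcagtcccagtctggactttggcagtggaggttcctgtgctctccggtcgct
Mtmr14: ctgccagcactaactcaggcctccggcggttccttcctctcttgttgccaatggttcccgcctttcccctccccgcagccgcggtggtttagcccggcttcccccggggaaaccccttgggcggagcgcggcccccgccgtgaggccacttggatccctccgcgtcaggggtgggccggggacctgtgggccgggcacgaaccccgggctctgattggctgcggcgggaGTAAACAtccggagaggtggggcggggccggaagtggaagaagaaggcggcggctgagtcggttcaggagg
Ypel3: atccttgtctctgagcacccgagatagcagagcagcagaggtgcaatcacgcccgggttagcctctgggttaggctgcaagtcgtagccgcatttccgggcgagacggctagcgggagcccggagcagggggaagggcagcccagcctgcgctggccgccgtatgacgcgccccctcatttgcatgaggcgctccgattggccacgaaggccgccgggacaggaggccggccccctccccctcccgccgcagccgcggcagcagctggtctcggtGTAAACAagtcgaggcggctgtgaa
Fam124b: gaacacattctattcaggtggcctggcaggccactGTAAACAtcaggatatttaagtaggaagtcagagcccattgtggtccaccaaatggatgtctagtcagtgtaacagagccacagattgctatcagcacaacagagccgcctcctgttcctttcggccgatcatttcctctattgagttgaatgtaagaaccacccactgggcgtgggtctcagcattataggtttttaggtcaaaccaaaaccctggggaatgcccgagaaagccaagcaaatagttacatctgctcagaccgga

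In 3 of these windows the word lay almost under the site. The window of Fam124b is chr1:80213895-80214194 on the minus strand. The site lay at base 39 of the window, on the centre of the word that begins at base 36, and its scores were 192.4 in replicate 1 and 78.3 in replicate 2. The window of Mtmr14, a phosphoinositide phosphatase gene, is chr6:113237593-113237892 on the plus strand. Its site lay 1 bp from the word centre and 19 bp upstream of the start used for the window, with scores of 150.3 and 94.2. The window of Ypel3 is chr7:126776713-126777012, also on the plus strand. There the distance was 15 bp, and the scores were 140.1 and 100.7.

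In the other windows the word and the site lay farther apart. The window of the Golgi membrane gene Yipf4 is chr17:74489243-74489542, plus strand, with 37 bp between word centre and site and scores of 160.5 and 91.6. The window of Btg1, an antiproliferative gene, is chr10:96616751-96617050, plus strand. Its site was 250 bp from the word, on the last base of the window, with scores of 159.1 and 123.5. The window of Rsrp1 is chr4:134923375-134923674, plus strand, with a distance of 264 bp and scores of 139.9 and 105.4. In these 3 windows the word was therefore not the sequence under the summit.

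The 2 highest sites inside a promoter window with none of the 4 forkhead words searched, which are spelled out with their shares further on, were at Sh3d19, an adaptor protein gene, and Polr2a, the largest subunit of RNA polymerase II. They are shown for contrast, with the SP and KLF word GGGCGG, or its reverse complement CCGCCC, in capitals.
Sh3d19: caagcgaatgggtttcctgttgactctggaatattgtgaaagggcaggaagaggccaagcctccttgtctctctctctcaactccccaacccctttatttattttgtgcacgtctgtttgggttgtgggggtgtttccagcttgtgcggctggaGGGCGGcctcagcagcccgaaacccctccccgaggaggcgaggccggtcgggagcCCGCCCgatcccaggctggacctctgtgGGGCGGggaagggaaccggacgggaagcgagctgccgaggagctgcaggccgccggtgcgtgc
Polr2a: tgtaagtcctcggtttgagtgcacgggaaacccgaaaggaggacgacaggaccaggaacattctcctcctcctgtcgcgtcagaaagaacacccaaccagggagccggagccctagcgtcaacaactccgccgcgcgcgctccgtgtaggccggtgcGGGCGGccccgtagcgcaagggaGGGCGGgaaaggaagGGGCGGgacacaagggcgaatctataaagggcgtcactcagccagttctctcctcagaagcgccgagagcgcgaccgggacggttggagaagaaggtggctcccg

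The window of Sh3d19 is chr3:85970868-85971167 on the plus strand. Its site scored 244.0 in the first replicate and 126.4 in the second and lay at base 105 of the window. The window of Polr2a is chr11:69758584-69758883 on the minus strand. Its site had scores of 194.6 and 148.0 and lay at base 277, which is 26 bp downstream of the start. Both windows held 3 copies of the SP and KLF word, and they had 19 and 30 CpG dinucleotides. None of these copies lay in the bases around the site, 85 to 125 at Sh3d19 and 257 to 297 at Polr2a. Sites as high as the top forkhead windows were thus also recorded at promoters without the forkhead words searched. The bases around the Sh3d19 site do hold TATTTAT, which differs from the searched word TATTTAC in its last letter only. TATTTAT itself was not searched, so the Sh3d19 window is not shown to lack sequence resembling a forkhead word.

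Gene-end sites were mostly sites at gene starts. The strand was known for 17492 of the 21887 protein-coding genes. Among the 7033 sites whose nearest end belonged to such a gene, 6446 (91.7%, interval 90.98 to 92.3%) were nearest a start and 587 (8.35%, 7.71 to 9.02%) were nearest a transcription end. The remaining 1766 sites were nearest a gene of unknown strand. Of the 587 end-nearest sites, 39 (6.64%) had any start of the promoter table within 1 kb, noncoding genes included.

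At starts the sites were packed just downstream of the first base. Their median position was 60 bp downstream, with quartiles at -1.75 and 136 bp, where negative is upstream. The 100 bp after the start held 2757 of the 6446 sites (42.8%, 41.6 to 44.0%), the 100 bp before it 725 (11.2%, 10.5 to 12.04%), and 4697 (72.9%) lay within 200 bp on either side. The flanks were uneven too, with 1236 sites more than 200 bp downstream and 513 at the same distances upstream. The stretch just downstream was also examined in each replicate's own summits. Of replicate 1 summits nearest a start, 33.96% lay in the first 100 bp downstream (32.998 to 34.9%), and of replicate 2 summits 38.5% (37.5 to 39.6%).

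At transcription ends the sites were spread far more evenly. Of the 587 sites, 51.3% lay before the end and 48.7% after it, with a median position of -17 bp. The 100 bp on either side held 86 of them (14.7%, 11.9 to 17.8%), against 54.2% (52.98 to 55.4%) of the sites at starts. A plot of positions around both kinds of end gives these counts in steps of 50 bp.

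**Figure D1:**
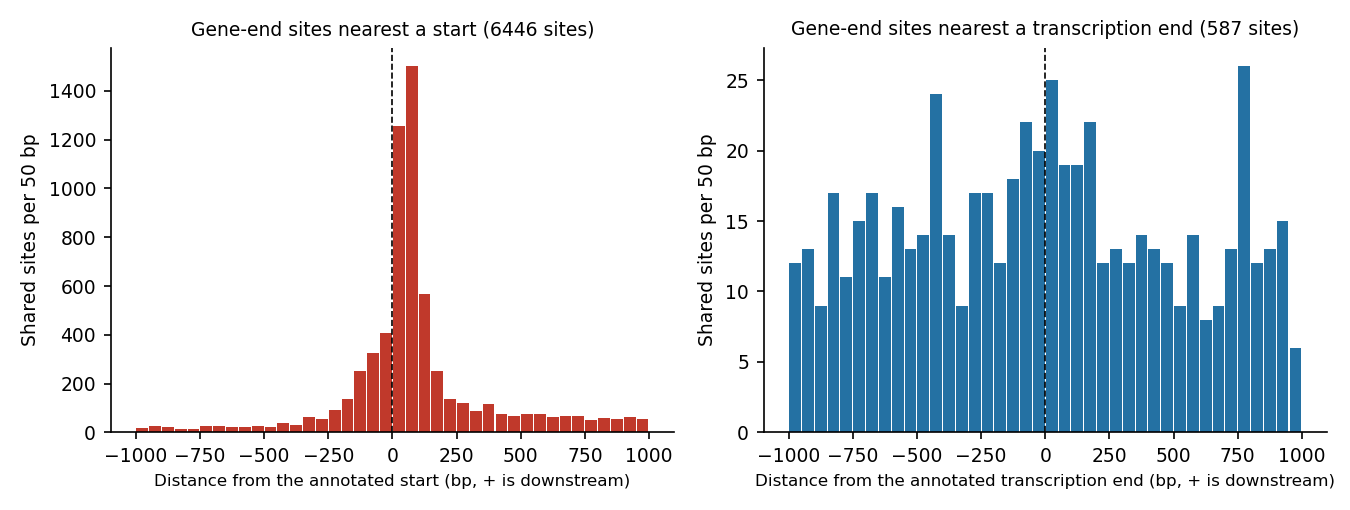
Number of gene-end sites per 50 bp by distance in bp from the nearest annotated start (left, 6446 sites) and transcription end (right, 587 sites), positive downstream. The vertical scales differ. The left panel peaks in the first 100 bp downstream, which hold 2757 sites, and the right panel has 51.3% of its sites before the end and 48.7% after it.

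A gene-end site was found at 9090 of 21887 protein-coding genes, so the background for every gene list below is 41.5%. A site within 1 kb of the start was found at 39.6% of the genes with a known strand, and within 1 kb of the transcription end at 5.16%. Of the 903 genes with a site at the transcription end, 524 also had a site at the start, and in short genes 1 site can be counted at both. Most genes with a site had exactly 1 (8155 genes), while 888 had 2, 46 had 3 and 1 had 4. Genes with a site spanned a median of 22314 bp, against 13391 bp for genes without one.

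Head-to-head promoters carried sites more often than single ones. Of 1158 genes in divergent pairs, whose starts lie at most 1 kb apart and point away from each other, 812 (70.1%, 67.4 to 72.7%) had a site at the start, against 6115 of the other 16334 stranded genes (37.4%, 36.7 to 38.2%). Each such gene has a further start within reach, so 1 site can count for both genes. In all, 674 gene-end sites (7.66%) lay within 1 kb of at least 2 starts and 9 lay within 1 kb of at least 3. Where 1 start had exactly 2 sites, which was so at 292 starts, the sites lay a median of 806.5 bp apart and never closer than 413 bp. They flanked the start at 145 of these and were both downstream at 123.

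The share of genes with a site was similar on most chromosomes, lying between 39.3% and 49.4% on chromosomes 1 to 6 and 8 to 19. It was 33.1% on chromosome 7 and 26.4% on the X chromosome, and none of the 256 genes of the Y chromosome had a site. On Y only 1 shared site of any kind was listed.

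Gene-end sites stood more alone than other shared sites. No other shared site lay within 10 kb of 4549 of the 8799 (51.7%, 50.6 to 52.7%), against 14579 of 42214 other shared sites (34.5%, 34.1 to 34.99%). The requirement of 100 bp also matters for the gene counts. A summit of each replicate lay within 1 kb of an end of 10857 genes, and 1773 of these (16.3%) had no gene-end site.

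Scores of gene-end sites were moderate, and their standing depended on the replicate. In replicate 1 their median score was 40.3 (quartiles 25.1 and 59.8), against 45.01 (27.97 and 78.1) for other shared sites. In replicate 2 their median was 27.8 (15.5 and 42.1), against 17.6 (10.2 and 34.6). They thus ranked below the other shared sites in replicate 1 and above them in replicate 2. Ranked among all shared sites of a replicate from 0 to 100, their median rank was 44.9 in replicate 1 and 64.6 in replicate 2, against 51.0 and 46.5 for other shared sites.

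The shift in rank was seen at starts. Of the 6446 start-nearest sites, 92.0% (91.3 to 92.6%) ranked higher in replicate 2 than in replicate 1, against 35.7% (35.3 to 36.2%) of other shared sites. Among the end-nearest sites the share was 43.3% (39.2 to 47.4%), with median ranks of 42.8 in replicate 1 and 41.4 in replicate 2. The shift was large in CpG-rich starts, where 94.2% of 5559 sites ranked higher in replicate 2. In starts with under 10 CpG dinucleotides in the window it was 77.7% of 887. The part of CpG content in this shift was not tested. For gene-end sites as a whole the median rank was thus on opposite sides of the other shared sites in the 2 replicates, while end-nearest sites ranked below them in both.

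**Figure D2:**
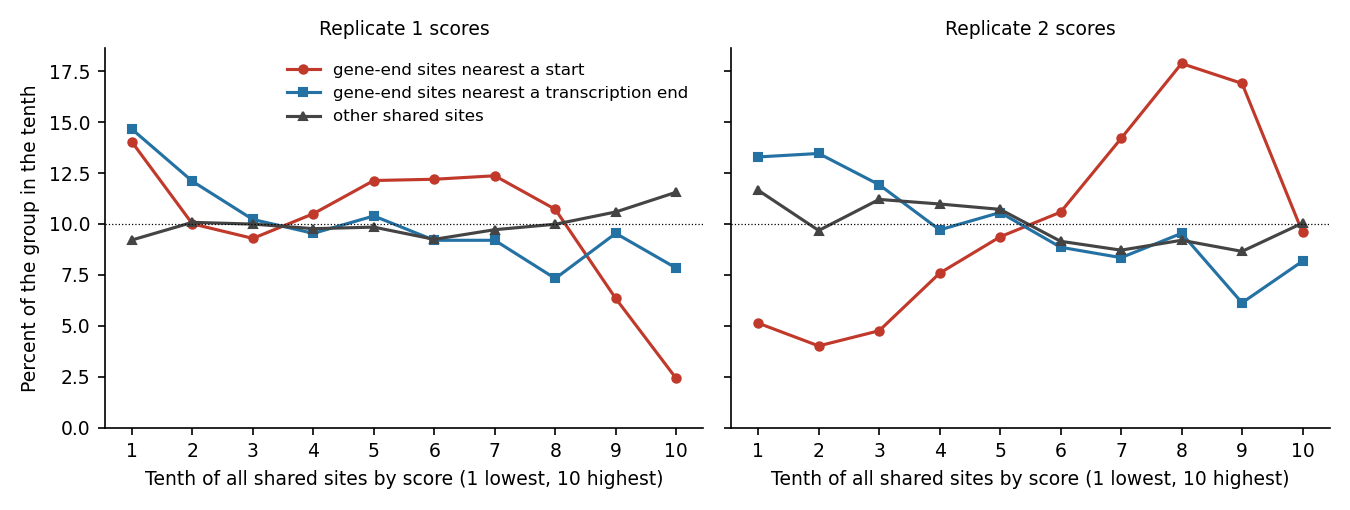
Percent of each group of sites in each of 10 equal steps of all shared sites, from lowest (1) to highest (10), ordered by replicate 1 scores (left) and replicate 2 scores (right), with a dotted line at the 10% that an even spread gives. Gene-end sites nearest a start (median rank 44.9) are few in the highest steps of replicate 1 and most frequent in steps 7 to 9 of replicate 2 (median rank 65.8), while sites nearest a transcription end are low in both (42.8 and 41.4).

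Across the gene-end sites, which are not independent, the scores of both replicates had a Spearman's rho of 0.889, against 0.918 across other shared sites. The summits of a pair were separated by a median of 14 bp, against 13 bp at other shared sites. Scores ran from 2.24 to 289.9 in replicate 1 and from 2.15 to 178.3 in replicate 2. Neither threshold of the rule marked a step in score. The 263 sites in the outermost 100 bp of the 1 kb window had median scores of 32.9 and 16.9, and the 244 in the 100 bp just outside it had 37.2 and 15.5. The 220 pairs near an end whose summits lay at most 10 bp inside the pairing limit had 30.04 and 19.8, and the 197 at most 10 bp beyond it had 33.5 and 22.1.

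**Figure D3:**
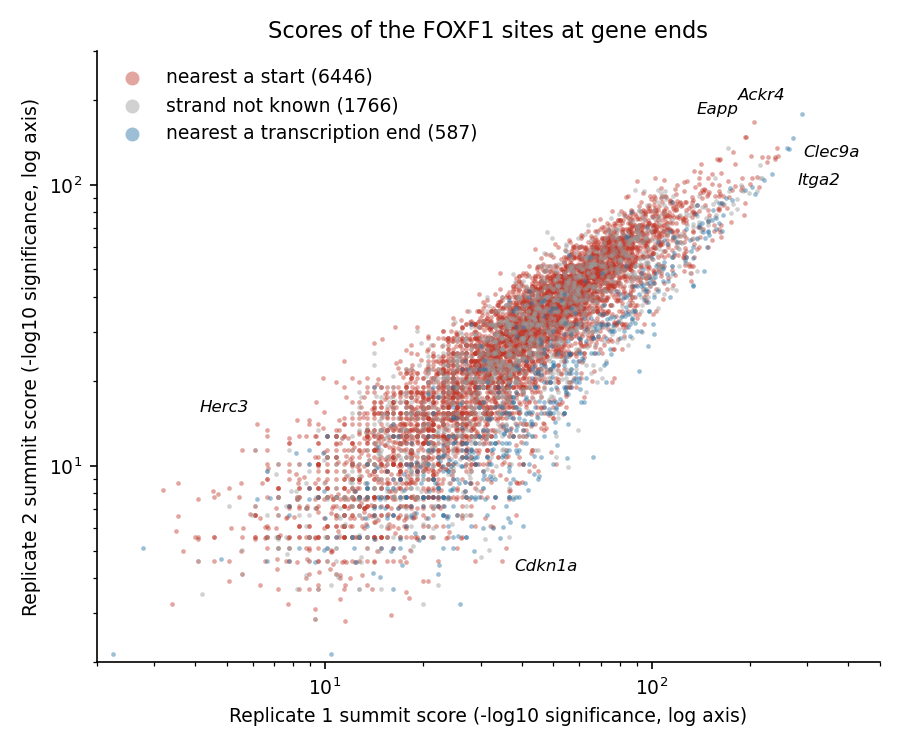
Replicate 2 score against replicate 1 score of the 8799 gene-end sites, both −log10 significance on log axes, coloured by the nearest end. Sites nearest a transcription end lie along the lower edge of the cloud, and the highest site in both replicates is that of Ackr4 (289.9 and 178.3).

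The highest shared sites of all were rarely at gene ends. Ordered by the mean percentile of both lists, the 100 highest shared sites included 2 gene-end sites (2%, 0.243 to 7.04%), both nearest a transcription end. The 1000 highest included 38 (3.8%, 2.70 to 5.18%), of which 22 were nearest a start, 9 nearest a transcription end and 7 of unknown strand. The 10000 highest included 1583 (15.8%) and the 25000 highest 5089 (20.4%), beside 17.2% of all 51013 shared sites. The low shares were thus confined to the very highest sites. By replicate 1 scores alone the 1000 highest included 32, and by replicate 2 scores alone 55.

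The 4 highest gene-end sites all lay near a transcription end. The first, at chromosome 9 position 104098490, lay inside Ackr4, an atypical chemokine receptor gene, 808 bp before its end. It scored 289.9 in replicate 1 and 178.3 in replicate 2. The next lay 588 bp beyond the end of Clec9a, a lectin receptor gene of dendritic cells, at chromosome 6 position 129425352, with 271.1 and 146.5. A site 439 bp before the end of the collagen-binding integrin gene Itga2 (259.5 and 135.4) and one 283 bp beyond the end of Fam162b, at chromosome 10 position 51585131, followed. The Fam162b site had scores of 263.8 and 134.2. All 4 were above the 99th percentile of both lists.

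Further end-nearest sites were high in both lists. A site 175 bp beyond the end of Pus10, a pseudouridine synthase gene, had scores of 233.3 and 109.0. A site 407 bp before the end of Mindy4, a deubiquitinase family gene, had 221.3 and 104.2. A gene's end being the nearest says nothing about which gene a site acts on.

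Among start-nearest sites the highest lay 257 bp upstream of Prr18, at chromosome 17 position 8340149, with scores of 242.4 and 135.4. The site of Sh3d19, whose window is printed above, lay 167 bp downstream of the gene's outermost annotated start, and 146 bp upstream of the start used for the window. Eapp, which encodes a protein that binds E2F factors, had a site 952 bp upstream at chromosome 12 position 54696851, with 205.3 and 167.5, the second highest replicate 2 score among the 12 highest sites. Gcc2, a golgin gene, had a site 674 bp downstream with 238.1 and 125.9, and Sft2d1, a vesicle transport gene, one 833 bp downstream with 239.5 and 123.2.

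The rest of the 12 highest sites were at signalling and RNA decay genes. A site on the first base of Cnot6l, a deadenylase gene, had scores of 226.9 and 125.6. The activin receptor gene Acvr1b had a site 614 bp upstream of its start, at chromosome 15 position 101173458, with 225.4 and 121.1. The site 169 bp upstream of Dusp6, an ERK phosphatase gene, had 218.005 and 125.7. The start-nearest sites among them lay 0 to 952 bp from a start, and apart from that of Cnot6l none lay within 100 bp of it.

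The highest sites within 1 kb of at least 2 starts lay by genes of unlike function. One at chromosome 19 position 10204974 lay 581 bp upstream of the start of Fen1, a flap endonuclease gene of DNA replication, and within 1 kb of that of Tmem258, with scores of 188.3 and 96.1. One at chromosome 7 position 83884494, 153 bp upstream of Tlnrd1 and within 1 kb of the start of Mesd, a chaperone gene of LRP receptors, had 160.5 and 99.6. A site at chromosome 1 position 37430152 lay 13 bp downstream of the start of Unc50 and next to that of Coa5, a cytochrome oxidase assembly gene, with 160.6 and 95.4. The condensin gene Ncapd3 shared a site with the retromer gene Vps26b (146.2 and 84.9), Kctd10 with Ube3b (118.8 and 92.7), and Rmi1 with the RNA-binding protein gene Hnrnpk (115.4 and 86.6).

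The genes with most sites held sites of very unequal score. Pcdhgc4, a clustered protocadherin gene on chromosome 18, had 4 sites with replicate 1 scores from 7.06 to 45.01 and replicate 2 scores from 5.60 to 11.4. Pbx2, a homeodomain gene, had 3 sites, of which the one 144 bp upstream of its start scored 153.6 and 101.1 and another 989 bp downstream scored 8.73 and 5.60. Atf6b, a gene of the unfolded protein response, had its highest site 207 bp beyond its end, with 148.8 and 68.6, and only 19.2 and 12.7 at 78 bp past the start. Gtf3c6 and Ap3m1 also had 3 sites each, with highest scores of 119.98 and 99.6 for Gtf3c6 and 140.1 and 72.3 for Ap3m1.

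A few sites were placed very differently by the replicates. The site 436 bp downstream of the start of Cdkn1a, the gene of the cell cycle inhibitor p21, scored 35.9 in replicate 1 and 5.11 in replicate 2, at percentiles of 68.6 and 4.21 of their lists. The site 296 bp downstream of Ranbp3l had 34.8 and 4.60, and Rd3, C1qtnf1 and Tmeff2 followed in that direction. In the other direction, the site 145 bp downstream of Herc3 had 6.20 and 14.1, at percentiles of 9.59 and 41.1, and that of Wwc1, a Hippo pathway gene, had 11.4 and 23.7, followed by Bak1, Tmem132c and Yif1a. These are the extremes of 8799 sites in 2 replicates.

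Lists of genes were then counted, each against the 41.5% of all protein-coding genes. Of 24 lists, 17 had a larger share of genes with a gene-end site. The largest shares were those of the chaperone, translation factor, tRNA synthetase and cell cycle lists. A site was found at 21 of 24 chaperone genes (87.5%, 67.6 to 97.3%), 18 of 21 translation factor genes (85.7%), 14 of 17 tRNA synthetase genes (82.4%) and 24 of 30 cell cycle genes (80%). It was found at 65 of 85 ribosomal protein genes (76.5%), 58 of 78 mitochondrial ribosomal genes and 29 of 39 proteasome genes (74.4% each), 22 of 30 general transcription and chromatin genes (73.3%), 27 of 37 complex I genes (73.0%) and 19 of 27 splicing genes (70.4%). The list counts use either end, and most of these sites were at starts, as at 15 of the 18 stranded chaperone genes.

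Among the chaperones the highest sites were those of Dnaja1, a co-chaperone of Hsp70, 78 bp downstream of its start at 109.4 in replicate 1 and 80.9 in replicate 2, and of the Hsp90 gene Hsp90ab1 with 100.04 and 76.9. Hspd1, Hspe1 and Cct5 had no gene-end site, although all 24 chaperone genes had a summit within 1 kb of an end in each replicate's own list. The translation factor genes were led by Eif4g2 with 110.3 and 95.0 and by Eef1a1, which brings aminoacyl-tRNA to the ribosome, with 111.7 and 77.8, while Eef1b2, Eif1a and Eif3b had summits of each replicate but no shared site, as all 21 genes of the list had a summit in each. Dars and Kars led the tRNA synthetases, with 65.1 and 54.3 for Dars and 66.2 and 44.6 for Kars, and Qars, Vars and Yars had no shared site, while all 17 genes of the list had a summit in each replicate. Ccnd3, a G1 cyclin gene, led the cell cycle list with a site 58 bp downstream of its start at 179.7 and 98.8, followed by Cdkn1b with 80.6 and 60.2.

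Lists of other cell machinery had high sites too. Rplp0 (135.1 and 78.7) and Rpl27a (101.998 and 68.6) led the ribosomal proteins of the cytosol, and Mrpl58 (139.9 and 70.8) and Mrps18b (103.2 and 74.0) those of mitochondria. The general transcription list was led by Polr2a and by Gtf2b, a factor of the preinitiation complex, whose site 1 bp past the start had 101.998 and 71.8. Ndufa6 (115.1 and 68.6) and Ndufb6 (87.0 and 72.3) led complex I, Psmd7 (67.2 and 58.3) and Psmd5 (79.2 and 48.4) the proteasome, and Hnrnpk and the splicing factor gene Srsf5 (103.2 and 69.7) the splicing list.

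Clustered histone genes and immediate early genes had sites that were both frequent and high. Of 63 histone genes 50 had a site (79.4%, 67.3 to 88.5%). H1f4, a linker histone gene, had one 58 bp downstream of its start at chromosome 13 position 23622500, with scores of 193.7 and 147.8, and H1f2 had one at 161.7 and 123.5. These genes are short and resemble one another, so their start and end counts (42 and 43 of 58) are not separate and reads may be shared between copies. Of 21 immediate early genes 16 had a site (76.2%, 52.8 to 91.8%). Ier2 had one at 156.7 and 105.7, and Nr4a1, an orphan nuclear receptor gene, one 233 bp before its end at 168.6 and 90.01. Fosb, Fosl2, Jund, Egr2 and Myc had none, and 19 of the 21 genes had a summit in each replicate's own list.

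**Figure D4:**
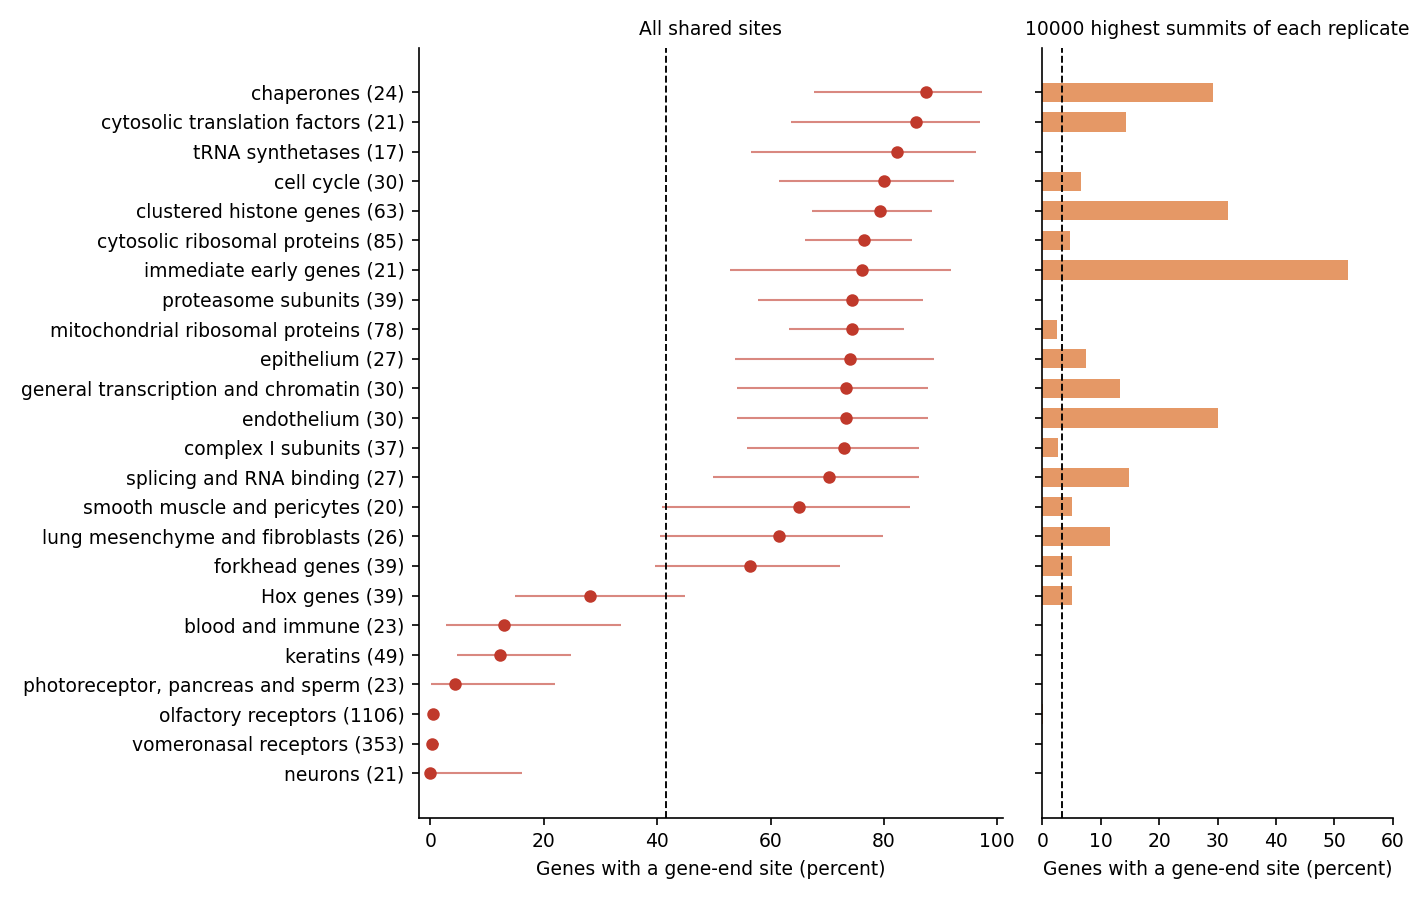
Percent of the genes of each list (number of genes in brackets) with a gene-end site, with exact 95% intervals (left), and the same from the 10000 highest summits of each replicate (right). Dashed lines mark all protein-coding genes, at 41.5% and 3.37%, and 17 of the 24 lists lie above the line on the left.

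The 4 lists of lung cell types had shares above the 41.5% of all genes. A site was found at 22 of 30 endothelial genes (73.3%, 54.1 to 87.7%), 20 of 27 epithelial genes (74.1%, 53.7 to 88.9%), 13 of 20 smooth muscle and pericyte genes (65%, 40.8 to 84.6%) and 16 of 26 lung mesenchyme and fibroblast genes (61.5%, 40.6 to 79.8%). The intervals overlap one another, and those of the smooth muscle and mesenchymal lists include the 41.5% of all genes. The median percentile of each gene's highest site was 86.6 for the endothelial list and 75.5 for the mesenchymal one. It was 68.3 for the epithelial and 64.3 for the smooth muscle list, beside 71.1 over all protein-coding genes with a site.

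Endothelial genes with high sites included a receptor, a diaphragm protein, a transcription factor and a junction gene. Tek, the angiopoietin receptor gene, had a site 448 bp downstream of its start, at 171.95 in replicate 1 and 103.3 in replicate 2. Plvap, which encodes the diaphragm protein of fenestrae and caveolae, had one 3 bp outside an end of the gene, at chromosome 8 position 71511809, with 183.1 and 82.0. Sox17, a transcription factor gene of arterial endothelium, followed with 122.4 and 78.3. The VE-cadherin gene Cdh5 had 109.1 and 68.6. No gene-end site was listed for Car4, Cd34, Emcn, Eng, Erg, Mmrn2, Sox7 and Adgrl4. A summit of replicate 1 alone lay within 1 kb of an end of 29 of the 30 endothelial genes and one of replicate 2 alone at 27, so most of these 8 lack a shared site and not a summit.

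Mesenchymal genes were led by transcription factors. Meis1, a homeodomain gene, had a site 112 bp upstream of its start, at chromosome 11 position 19019763, with scores of 200.6 and 100.7, and Tcf21 one 772 bp beyond its end with 143.7 and 67.8. Tbx2 followed with 123.3 and 66.7. Cald1, an actin-binding protein gene, led the smooth muscle list with a site 33 bp upstream of its start at 98.8 and 56.4, ahead of Mcam at 61.0 and 41.8. The epithelial list was led by Hopx, whose site lay 977 bp beyond its end and so only just inside the window, with 207.4 and 93.1, and by the site 176 bp upstream of Etv5 with 160.5 and 81.6.

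Foxf1 itself had no gene-end site. Of 39 forkhead genes 22 had one (56.4%, 39.6 to 72.2%), led by Foxl1, a forkhead gene of the mesenchyme in the same gene cluster as Foxf1 on chromosome 8. Its site, at position 121127560 and 125 bp outside an annotated end of Foxl1, had scores of 215.2 and 106.0, far above the next genes, Foxo3 (102.7 and 69.8) and Foxo1 (85.9 and 52.3). Foxf2, the paralog of Foxf1, had a site 67 bp upstream of the start with 43.1 and 41.8.

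The neuronal, blood and immune, keratin, olfactory and vomeronasal receptor, and photoreceptor, pancreas and sperm lists mostly lacked gene-end sites. A site was found at none of 21 neuronal genes, where the exact interval reaches up to 16.1%. It was found at 3 of 23 blood and immune genes (13.0%, 2.78 to 33.6%), namely Cx3cr1, Cd8a and Spi1. None of these 3 reached a mean percentile of 50. Of 23 genes of photoreceptors, pancreas and sperm, Pde6a alone had one (4.35%), of 49 keratin genes 6 (12.2%), of 1106 olfactory receptor genes 5 (0.452%) and of 353 vomeronasal receptor genes 1 (0.283%), Vmn1r4. The keratin sites were highest at Krt80, with 93.8 and 42.8, and Krt19, with 62.5 and 40.9. In the replicate 1 list alone 4 of the 21 neuronal genes had a summit, and in the replicate 2 list none.

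Single sites in lists with few sites were nonetheless high. The highest of an olfactory receptor gene lay 145 bp beyond the end of Olfr550, with scores of 113.9 and 68.6, and the next 544 bp downstream of the start of Olfr687, with 98.2 and 46.9. Hox genes, which set position along the body axis, had sites at 11 of 39 (28.2%, 15.0 to 44.9%), led by Hoxb7 with 121.1 and 51.4 and by Hoxb2 with 90.6 and 51.9. Sites of Hoxa, Hoxb and Hoxd genes were listed, and none of Hoxc genes. For Hox genes the replicate lists gave different counts, 25 of 39 from replicate 1 (64.1%, where 55.0% of all genes had a summit) and 15 from replicate 2 (38.5%, where 50.4% had one).

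The lists separated more among the strongest summits. With pairs made from the top 10000 summits of both lists, 3.37% of all protein-coding genes kept a gene-end site. The share was 52.4% for immediate early genes (11 of 21), 31.7% for histone genes (20 of 63), 30% for endothelial genes (9 of 30) and 29.2% for chaperone genes (7 of 24). It was 14.8% for splicing genes, 14.3% for translation factor genes, 13.3% for general transcription genes and 11.5% for mesenchymal genes. Epithelial, cell cycle, forkhead, Hox, smooth muscle and ribosomal protein genes lay between 4.71% and 7.41%. Complex I and mitochondrial ribosomal genes had 2.70% and 2.56%, and no proteasome or tRNA synthetase gene was left. Olfactory receptor genes kept 0.181%, and no gene of the neuronal, blood and immune, keratin, vomeronasal receptor or photoreceptor, pancreas and sperm lists was left. 

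The base composition of promoters moved with the presence of a site. Of 21263 promoter windows of protein-coding genes, 3781 held a gene-end site. These had a median of 24 CpG dinucleotides and 62.7% G and C, against 9 and 54.7% in windows without one. The share of windows with a site was 1.44% (1.16 to 1.78%) at 0 to 4 CpG dinucleotides, 14.8% at 10 to 14 and 36.6% (34.4 to 38.7%) at 25 to 29, and then 30.3% (28.3 to 32.4%) at 35 or more. Median scores also differed along this scale, at 34.3 and 17.6 in the lowest class and 45.97 and 34.6 in the highest. The part of base composition in the presence of a site was not tested.

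The windows reach only 50 bp past the start, and so they held 3376 of the 6446 start-nearest sites (52.4%). The sequences under the other sites, and under those at transcription ends, were not analysed here. Letters found in a window are a description and not a binding site.

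The forkhead word was uncommon in windows with a site. TGTTTAC on either strand was present in 140 of 3781 windows with a gene-end site (3.70%, 3.12 to 4.35%), against 3.01% of all 21263 windows. In the wider set of 8533 windows of genes with a site within 1 kb of the start, inside the window or not, it was present in 214 (2.51%). That share lay below the share of all windows. The other 3 forkhead words, TGTTTGC (3.15% against 4.58%), TGTTTAT (2.80% against 3.92%) and TATTTAC (1.51% against 2.59%), were less common in windows with a site than in all windows, and this order differed between classes of CpG content. In windows with under 10 CpG dinucleotides, TGTTTAC was present in 11.8% of the 279 with a site, against 4.15% of all such windows. In windows with 10 or more it was present in 3.06%, against 2.13%. In the class with 10 or more, TGTTTAT was present in 2.51% against 1.75% of all such windows, TATTTAC in 1.31% against 1.11% and TGTTTGC in 2.80% against 2.75%. In the class under 10, TGTTTGC was present in 7.53% against 6.98%, TGTTTAT in 6.45% against 6.76% and TATTTAC in 3.94% against 4.53%. Any of the 4 words was present in 26.2% against 20.2% under 10, and in 9.34% against 7.36% at 10 or more.

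The word was more common in the windows of the highest sites, counted anywhere in the window. The windows were split into 5 equal groups by the mean percentile of the site. The word was present in 2.64% of the lowest group, then in 0.926%, 3.04% and 3.97%, and in 7.94% (6.11 to 10.1%) of the highest. With pairs from the top 10000 summits of both lists it was present in 40 of 273 windows (14.7%). In the highest group 18.7% held any of the 4 forkhead words, against 12.9% of all windows. A rise in the highest group was not particular to forkhead words. The TATA box word TATAAA was present in 5.02%, 5.82%, 4.23% and 5.16% of the lower groups and in 9.66% of the highest.

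Where the word occurred in a window with a site, many copies lay close to the site and others far from it, as at Gtf2h3 (274 bp). Windows without a site inside them were left out here. The 142 copies of TGTTTAC in windows with a site lay a median of 24 bp from the site, and 52.1% (43.6 to 60.6%) were within 25 bp. They lay a median of 112 bp from the start of transcription, with 22.5% within 25 bp of it. Windows can overlap, and the 3781 windows with a site held 3409 different sites. Some copies are therefore counted more than once, and the intervals treat them as separate. For CCAAT, the NF-Y word of many promoters, which overlaps none of the forkhead words, the median distance to the site was 105 bp and 6.70% (5.70 to 7.81%) were within 25 bp. The YY1 word AAGATGGC was similarly near the site, at a median of 27.5 bp with 47.7% within 25 bp, but it was also near the start, at a median of 31 bp. Among the words searched, TGTTTAC had the largest share of copies within 25 bp of the site. The share was 33.3% for TGTTTAT and 36.2% for TATTTAC. For TGTTTGC it was only 22.6%, and its copies lay a median of 107 bp from the site, near the 105 bp of CCAAT. At Cald1 the word centre was at the site itself.

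**Figure D5:**
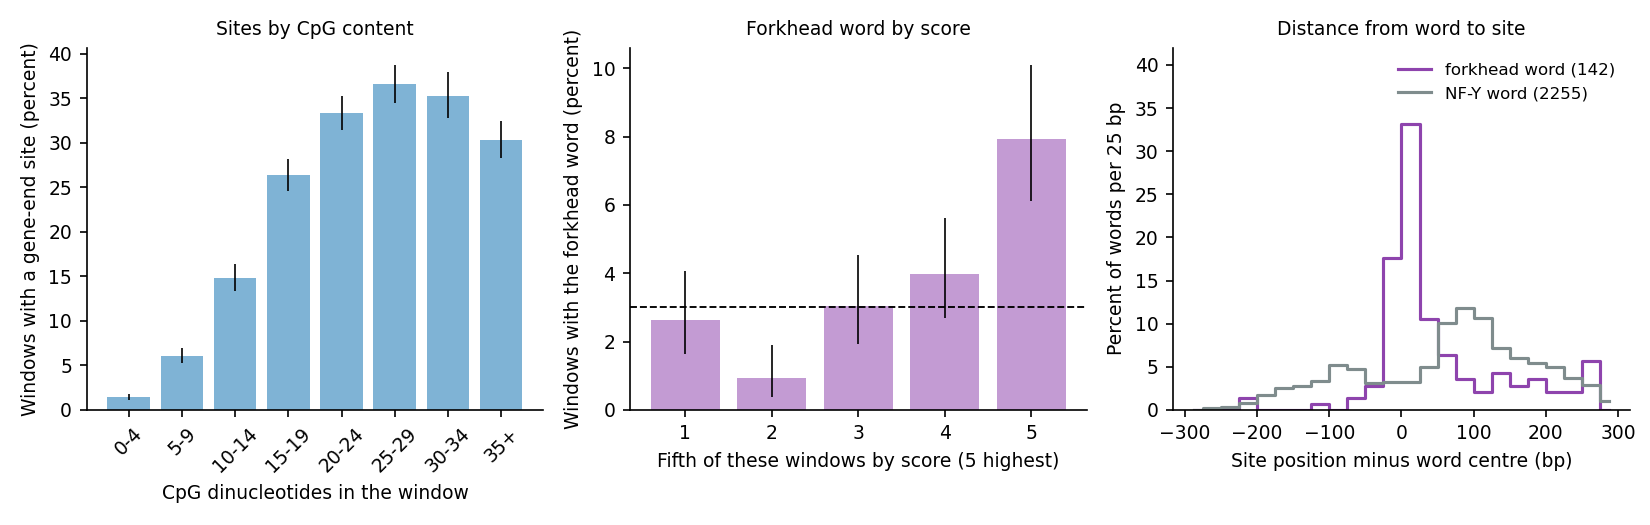
Left, percent of promoter windows with a gene-end site by number of CpG dinucleotides, from 1.44% at 0 to 4 up to 36.6% at 25 to 29. Middle, percent of windows with TGTTTAC by 5 equal groups of site score, reaching 7.94% in the highest, with a dashed line at the 3.01% of all windows. Right, distance in bp from word centre to site for the forkhead and NF-Y words, positive where the site is downstream of the word, of which 52.1% and 6.70% lie within 25 bp. Bars carry exact 95% intervals.

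Words of general promoter factors were mostly more common in windows with a site. The SP and KLF word GGGCGG was present in 72.0% of windows with a site, against 46.2% of all windows, and the ETS word CCGGAAG in 26.7% against 11.6%. AAGATGGC (6.77% against 3.05%), the CRE word TGACGTCA (4.63% against 2.23%), the NRF1 palindrome (2.94% against 1.33%) and the E-box CACGTG (9.94% against 7.84%) lay on the same side. CCAAT was equally common in both (38.2%). The TATA box word TATAAA was present in 5.98% against 12.6%, the AP-1 word TGANTCA in 3.28% against 6.99% and the GATA word AGATAAG in 1.38% against 2.64%. Among windows with 10 or more CpG dinucleotides the gap for GGGCGG was small, at 75.4% against 72.4% of all such windows. For CCGGAAG it was 27.96% against 18.4%, and for AAGATGGC 7.22% against 4.44%. The CRE word (4.97% against 3.46%) and the NRF1 palindrome (3.17% against 2.30%) also stayed on the same side there, and CCAAT was present in 38.1% against 36.8%. The E-box was on the other side in this class, at 10.2% against 11.1%, and the TATA box, AP-1 and GATA words kept theirs, at 4.997% against 5.39%, 2.77% against 3.82% and 1.11% against 1.19%. All words were searched on both strands.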

How the data were processed

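FOXF1 was mapped by ChIP-seq in whole mouse lungs at embryonic day 18.5. The authors' files list peak summits called with MACS2 on mm10, per the submitters' processing notes, 1 list for each of the 2 replicates, whose peak names set it against the input. The deposited score is read as −log10 significance, from the MACS2 summit format. The depth, the aligner and the MACS2 version and options were not given in the sources used here. Per the labels, chromatin was digested with micrococcal nuclease and then sonicated, 10 µg of it was precipitated with 7 µg of antibody, and fixation was in 1% formaldehyde.

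Nuclear summits were paired, and 10 and 6 mitochondrial summits were left out. Gene ends came from RefSeq genes on GRCm38.p6, the assembly of mm10, with 21887 protein-coding genes. Strand and 300 base promoter windows came from a RefSeq promoter table that covers 17492 of these genes, by gene ID, and none on chromosome 18. Python 3.11.15 with pandas 2.3.3, numpy 2.4.6 and scipy 1.17.1 was used. Pairing, end assignment and word search were checked on simulated positions.

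The sites and lists were chosen with earlier results of these data known. The genes named are the 12 highest sites, the 6 highest at transcription ends with no start within 1 kb, the 6 highest near at least 2 starts, the 5 genes with most sites, the extremes between replicates, the 2 highest genes of each list and the genes without a site in lists lacking at most 5. The histone list was given current symbols, and Cdh5, Foxf2, Tbx2 and further members without a site were named, after values were seen. Alternatives are 9 settings, and 2 added after seeing the data.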

Additional observations from a re-analysis of the deposited data

How the results depend on the processing

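The share of shared sites at gene ends, the share nearest a start and the share with the forkhead word kept their level in most settings. The median percentile, the shares of genes and starts with a site and the distance between summits shifted in most. All of these shifted with the 10000 highest summits alone. That setting left 687 gene-end sites, 9.15% of shared sites, of which 86.8% of those with a known strand were nearest a start. It left 3.37% of genes and 2.90% of starts with a site, with a median score percentile of 94.0, paired summits a median of 10 bp apart and the forkhead word in 14.7% of windows. At 50 bp between summits the median percentile was 70.2, 36.6% of genes and 34.5% of starts had a site, and summits lay 11 bp apart, and at 200 bp the values were 68.4, 46.9%, 45.2% and 17 bp. Within 500 bp of an end they were 70.5, 36.5%, 35.4% and 13 bp, within 2 kb 67.5, 46.9% and 43.6%, and at a score of at least 10 they were 72.6, 37.8%, 36.3% and 13 bp. Any of the 4 forkhead words was present in 10.6% of windows with a site. These settings by construction admit fewer or more summits, or a narrower or wider window.

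With the summits of 1 replicate alone, 11611 to 13617 gene-end sites were found, 12.7 to 18.98% of all summits, and 85.9 to 91.7% were nearest a start. Then 50.4 to 55.0% of genes and 48.9 to 52.1% of starts had a summit, the median percentile was 64.0 to 64.3 and the forkhead word was in 3.49 to 3.68% of windows. Of the 24 lists, 14 lay above all genes with the 10000 highest, 18 in replicate 1 alone and 17 in each other setting. With 1 window per gene the forkhead word was present in 3.69%, and with every listed start 91.8% of sites were nearest a start, both chosen after seeing the data. No paired analysis was possible because there is 1 group of FOXF1 libraries and no list for the input. Read depth is unknown, so a gene without a site cannot be read as unbound.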
